A study of Rattus norvegicus with 3 samples.

Results

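The 7 genes described here, Stra6, Aldh1a2, Aldh1a3, Crabp1, Crabp2, Cyp26b1 and Rarb, take up vitamin A, make retinoic acid from it, carry it in the cell, degrade it or respond to it. They were picked by symbol for this role, with no threshold on a measured value but with earlier results of these data known, and all 7 were found among the 29772 genes of the deposited count tables. The tissue was cerebral cortex from wildtype rat embryos (strain not given in the sources used here), dissociated with papain and read as droplet-based single-cell libraries, in which each captured molecule of mRNA is counted once by its unique molecular identifier (UMI). There were 3 libraries, labelled E14, E16 and E18 for the embryonic day, and 1 library per label. Differences between labels therefore could not be set against the spread between animals, how many embryos each library pooled is not given in the sources used here, and no test was possible. The labels call the cells freshly prepared, while another of their protocol texts speaks of cultured, oligo-tagged and sorted human cells. Which of those steps these libraries went through is not clear from it, and a sort or a culture would alter the shares and levels of cell groups.

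Retinoic acid is a diffusible signal made from retinol in a pair of oxidation steps, the second of which is carried out by retinaldehyde dehydrogenases. Cells that hold a CYP26 hydroxylase break it down, and in the nucleus it binds receptors of the RAR family, which sit on DNA as dimers with RXR. Around the developing forebrain the meninges, the connective tissue that wraps the brain, are a known source of retinoic acid, and binding proteins in receiving cells pass it to the receptors or to the hydroxylases.

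After filtering, 14694 cells remained, with 4286, 4977 and 5431 in the libraries labelled E14, E16 and E18 and median depths of 11193, 12276 and 10475 UMIs per cell. Clusters rebuilt here and named from marker genes gave 14 groups of cells, called "-like" below because no deposited annotation was used. No cell labelled E14 was placed among the choroid plexus-like or the meningeal fibroblast-like cells, and 0 of 4286 cells allows a share of up to 0.07%. The libraries also went against the order of their labels. In radial glia-like cells Hmga2, a gene of early progenitors, stood at 12.5, 224 and 21.5 CPM in the libraries labelled E14, E16 and E18, and Aldoc, a gene of later progenitors, at 730, 17.1 and 240 CPM, where CPM is the UMIs of a gene per 1000000 UMIs of the group of cells. All values are therefore given by label and not as a time course. Between each pair of libraries 12 to 17 cell barcodes were shared.

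Summed over all libraries, the genes fell into 3 patterns. Stra6, Aldh1a2, Crabp1 and Rarb had their highest CPM in meningeal fibroblast-like cells, Crabp2 in choroid plexus-like cells and Cyp26b1 in excitatory neuron-like cells. Aldh1a3, with 16 UMIs in all kept cells, was under the minimum of 50 UMIs set for ranking, although 9 of its 16 UMIs lay in meningeal fibroblast-like cells. The count in meningeal cells was 4 of the 6 genes that could be ranked, where 10% of the 16018 genes ranked over the same 14 groups were highest there. Aldh1a2 reached the minimum of 50 UMIs only through its UMIs in meningeal cells, here and in the library labelled E16 alone, so that the minimum itself fixed its place in the count. Choroid plexus-like cells held the highest level of 14.8% of those genes, and the excitatory neuron-like cluster where Cyp26b1 was highest held 3.65%. In the library labelled E16 alone, which holds 10 groups of at least 30 cells, 4 of 5 rankable genes were highest in meningeal cells, against 13.5% of 14001 genes. The library labelled E18 has 22 such cells, under the minimum of 30, so without the library labelled E16 meningeal cells drop out of the ranking and the count is 0.

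**Figure D1:**
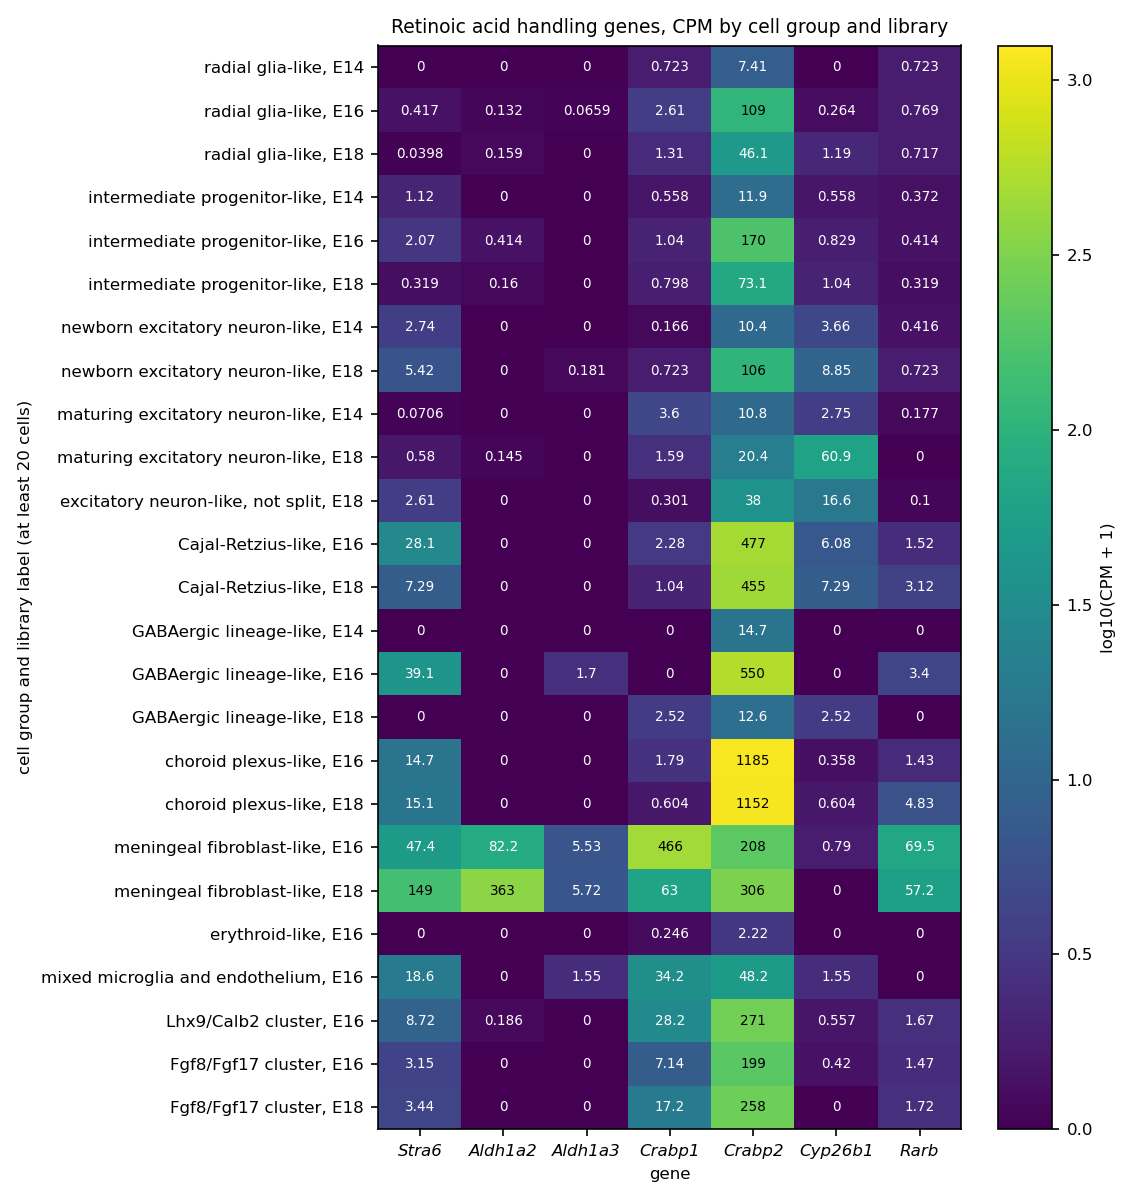
The heat map gives the CPM of each gene (columns) in each cell group and library with at least 20 cells (rows), with the CPM printed in each field and the colour on a log10(CPM + 1) scale. Stra6, Aldh1a2, Crabp1 and Rarb are highest in the meningeal rows, Crabp2 is highest in the choroid plexus rows, and Cyp26b1 is highest in the maturing excitatory neuron-like cells labelled E18.

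The meningeal fibroblast-like cells, 93 labelled E16 and 22 labelled E18, expressed all 11 listed markers of that class in both libraries, and Col3a1, Col1a1 and Col1a2, collagens of fibrous connective tissue, led the cluster. Of the markers of other classes, those of endothelium summed to 21.3 and 63.0 CPM in the cells labelled E16 and E18, against 12291 and 17224 CPM for the meningeal list, and Cldn5 and Pecam1 were at 0 UMIs in both. Markers of the choroid plexus summed to 47.4 and 143 CPM, with Clic6, Otx2, Kl, Prlr and Sostdc1 at 0 in both. The part of such RNA from other cells in the values below was not tested. Stage, library and the mix of meningeal cells sampled cannot be told apart between the labels. The 22 cells labelled E18 also depended on the doublet step: with doublets removed at 2 times the rate, 1 of them was left, and 90 labelled E16.

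Uptake begins with Stra6, the membrane receptor that takes retinol from its plasma carrier. In meningeal fibroblast-like cells it stood at 47.4 CPM in the library labelled E16 (60 UMIs, exact Poisson 95% interval 36.2 to 61.0) and at 149 CPM in the library labelled E18 (52 UMIs, 111 to 195). The level labelled E18 was the higher and the intervals, which cover counting error only, did not overlap. A UMI was found in 36 of 93 cells labelled E16 and in 18 of 22 labelled E18, and in 7.53% and 28.6% of cells once every cell was thinned to 2000 UMIs. The log2 ratio, with 1 CPM added to each level as in all ratios below, was 1.63. Of the 6 genes that reached a mean of 5 CPM in meningeal cells, 2 were at least 2-fold higher under the label E18, against 12.2% of all 10357 genes compared, and 1 was at least 2-fold lower, against 7.07%. The direction held where the clusters were made in other ways, but the size did not: Stra6 was 34.4 and 56.8 CPM at a coarser clustering (resolution 0.5) and 37.7 and 70.4 CPM with no doublets removed, both under 2-fold. In these settings the class was redrawn too, with 141 and 52 cells at the coarser clustering and 114 and 43 with no doublets removed. Neither setting kept a class of mural-like cells of vessel walls, and the coarser clustering kept none of microglia and endothelium. The redrawn class also held 26 and 7 cells labelled E14, so that its levels cannot be read as those of meningeal cells alone.

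Outside the meninges Stra6 was found at lower levels and in particular groups. In Cajal-Retzius-like cells, the reelin-producing neurons of the outermost cortex, the library labelled E16 had 28.1 CPM (37 UMIs) and that labelled E18 7.29 CPM (7 UMIs), with intervals that did not overlap, and none was counted in 16 cells labelled E14. Choroid plexus-like cells held 14.7 and 15.1 CPM in the libraries labelled E16 and E18, with 9 of the 25 UMIs labelled E18 in 1 cell. With each library clustered on its own these were 25.0 and 6.76 CPM, in a redrawn class of 72 and 168 cells in place of 148 and 54. GABAergic lineage-like cells held 23 UMIs (39.1 CPM) under the label E16 and 0 in the other libraries, and 10.5 CPM labelled E16 with doublets removed at 2 times the rate, where the class was redrawn and held 422 cells labelled E16 in place of 74. Stra6 was thus present in a broader set of cell groups than Aldh1a2, and in radial glia-like cells it was close to absent, at 0, 0.42 and 0.04 CPM in label order. Within newborn excitatory neuron-like cells labelled E14, 24 of its 33 UMIs fell in the cluster led by Cxcl12, Sstr2 and Negr1. A further 13 UMIs (19.5 CPM) lay in 14 cells led by Cldn5 and Flt1, genes of endothelium, and erythroid-like cells, which should lack it, had 0 UMIs in 123 cells labelled E16 at a median depth of 32368 UMIs.

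Synthesis is represented by Aldh1a2 and Aldh1a3, retinaldehyde dehydrogenases that carry out the last, irreversible step to retinoic acid. Aldh1a2 stood at 82.2 CPM in meningeal fibroblast-like cells labelled E16 (104 UMIs, 67.1 to 99.6) and at 363 CPM in those labelled E18 (127 UMIs, 303 to 432), a log2 ratio of 2.13. The cells labelled E18 were again the higher ones, without overlap of the intervals. A cell of 36919 UMIs held 48 of the 127 UMIs labelled E18, and the level without it was 253 CPM (200.1 to 315), still above the interval of the cells labelled E16. In the redrawn classes described above it was 49.7 and 137 CPM at the coarser clustering and 68.1 and 166 CPM with no doublets removed. It was at least 2-fold higher under the label E18 each time. A UMI was found in 43 of 93 and 16 of 22 cells, or 12.9% and 33.3% at 2000 UMIs.

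Most Aldh1a2 UMIs lay in a single class. In the libraries labelled E16 and E18, 92.0% and 94.1% of its UMIs in kept cells came from meningeal fibroblast-like cells, which made up 1.87% and 0.405% of the cells. The library labelled E14, with no cell in that class, had 0 Aldh1a2 UMIs in all of its 7100 barcodes. Radial glia-like cells held 6 UMIs in 2950 cells labelled E16 and 4 in 1768 labelled E18, and choroid plexus-like, Cajal-Retzius-like and GABAergic lineage-like cells held none. Col3a1, a meningeal collagen, was counted in the same radial glia-like cells at 3.56 and 1.55 CPM. Aldh1a3 was rare throughout: the meningeal cells held 7 UMIs (5.53 CPM, 2.22 to 11.4) under the label E16 and 2 UMIs (5.72 CPM, 0.69 to 20.7) under the label E18, intervals that overlap. Aldh1a1, the related dehydrogenase outside the 7 genes, was instead highest in choroid plexus-like cells, at 17.2 and 19.3 CPM, with 0 UMIs in meningeal cells labelled E16 and 2 labelled E18.

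**Figure D2:**
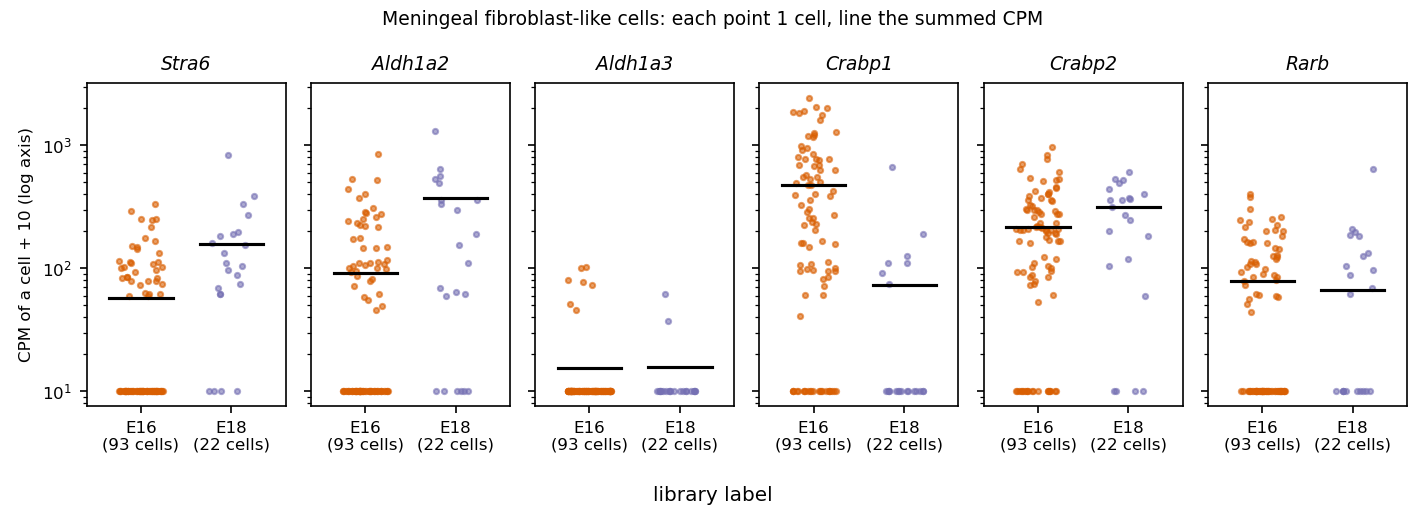
Each point is the CPM of 1 meningeal fibroblast-like cell plus 10, on a log axis, by library label, and the black line is the CPM of all such cells summed, plus 10. Points on the lowest level have no UMI of the gene. The summed level is higher under the label E18 for Stra6 and Aldh1a2 and lower for Crabp1, while the points of Crabp2 and Rarb largely overlap.

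Crabp1 and Crabp2 are small cytoplasmic proteins that bind retinoic acid, Crabp2 being known to hand it to the receptors and Crabp1 to hold it in the cytoplasm and pass it on for breakdown. Crabp1 stood at 466 CPM in meningeal cells labelled E16 (590 UMIs, 429 to 505) and 63.0 CPM in those labelled E18 (22 UMIs, 39.5 to 95.3). It thus ran opposite to Stra6 and Aldh1a2, with a log2 ratio of -2.87 and no overlap of the intervals. It was found in 70 of 93 cells and 7 of 22 cells, or 36.6% and 9.52% at 2000 UMIs. A single cell held 9 of the 22 UMIs labelled E18, and the level without it was 38.7 CPM. At the coarser clustering Crabp1 was 293 and 23.6 CPM in the redrawn class, in the same direction. Crabp2 in the same cells was 208 CPM (183 to 234) under the label E16 and 306 CPM (251 to 370) under the label E18, a log2 ratio of 0.56, under 2-fold although the intervals did not overlap. That direction turned in the redrawn classes described above, with 139 and 115 CPM at the coarser clustering and 182 and 157 CPM with no doublets removed. Those classes were not meningeal cells alone. In the main clustering the cells of microglia and endothelium had 48.2 CPM of Crabp2 labelled E16 and 0 UMIs labelled E18. The turn therefore cannot be read as one within meningeal cells.

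Meningeal cells were also split into 6 sub-clusters, a step added after the values were seen. Crabp1 was lower in the E18-labelled cells of each of the 4 sub-clusters with at least 3 cells of both libraries. In the sub-cluster led by Ptgds, Clec3b and Slc13a4, 5 cells labelled E16 had 822 CPM of Crabp1 (648 to 1029) and 9 labelled E18 had 30.8 CPM (10.0 to 71.8). In the largest, led by Stmn2 and Col8a1, Crabp1 stood at 175 CPM (129 to 232) in 23 E16-labelled cells and at 14.9 CPM (1 UMI, 0.38 to 82.8) in 5 E18-labelled cells. In the one led by Actg2 and Acta2, smooth muscle actins, the intervals overlapped, at 348 CPM (252 to 469) and 231 CPM (111 to 425). Stmn2 is also a listed marker of maturing excitatory neurons and Acta2 one of mural cells. Whether other cells or their RNA lie in these sub-clusters was not tested.

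Aldh1a2 did not move the same way in every sub-cluster. The cells led by Ptgds had 141 CPM (74.9 to 240.5) under the label E16 and 579 CPM (468 to 708) under E18, and those led by Top2a, a gene of dividing cells, 72.0 CPM (44.0 to 111) and 294 CPM (184 to 445). In both the E18-labelled cells were higher without overlap. In the sub-cluster led by Stmn2 the order was the reverse, at 135 CPM (94.9 to 186) and 74.3 CPM (5 UMIs, 24.1 to 173), with overlap. Among E16-labelled cells alone Crabp1 ranged from 175 CPM in the sub-cluster led by Stmn2 to 822 CPM in that led by Ptgds, and 24 cells led by Lix1 and Tenm4 had 726 CPM (631 to 832).

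No meningeal cell had a UMI of all 7 genes. Of the 93 cells labelled E16, 2 had a UMI of none of the 7 genes, 8 of 1, 24 of 2, 28 of 3, 20 of 4 and 11 of 5. Of the 22 labelled E18, 12 had 4 and 2 had 5. The highest number in a cell was 5 in both libraries. For 4 pairs of genes, the cells labelled E16 with both are given beside the number that the product of their shares gives. Crabp1 and Crabp2 were together in 55 cells against 54.9, and Aldh1a2 and Crabp1 in 32 against 32.4. Stra6 and Aldh1a2 were together in 14 against 16.6, and Stra6 and Crabp2 in 33 against 28.3, the widest gap of the 4. Other pairs and the cells labelled E18 are not covered by this. Such shares depend on the depth of each cell as well as on its RNA.

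Elsewhere Crabp1 was sparse. Radial glia-like cells held 0.72, 2.61 and 1.31 CPM in label order, and maturing excitatory neuron-like cells labelled E14 held 102 UMIs spread over 88 of 1875 cells (3.60 CPM, 2.94 to 4.37). Of these, 71 lay in the cluster led by Sybu, Dync1i1 and Cdh13, at 5.94 CPM. With a stricter cell filter (at least 2000 genes, at most 5% mitochondrial UMIs) the class held 55 cells labelled E14 and 1 UMI of Crabp1 (1.21 CPM, 0.03 to 6.74), an interval that spans the level above. The pattern was the reverse in the unnamed cluster led by Calb1, Calb2 and Lhx9, nearly all of it labelled E16, where 152 UMIs lay in 8 of 590 cells and 93 of them in 1 cell. Among the vessel and immune cells, split further after the values were seen, 10 cells led by Serpine2, Npy and Postn, with 21 UMIs of Sox10, a gene of neural crest and its glia, had 21 UMIs of Crabp1 (155 CPM) and 27 of Crabp2 (200 CPM). Mural-like cells, the contractile cells of vessel walls, had 1 UMI of Crabp1 and 0 of Crabp2 in 32 cells.

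Crabp2 was the most widely found of the genes, with a UMI in 6026 of 14694 cells and 19159 UMIs in all. Choroid plexus-like cells, the epithelium that secretes cerebrospinal fluid, had 1185 CPM labelled E16 (1145 to 1226) and 1152 CPM labelled E18 (1101 to 1205). All 10 markers of the class were found in both libraries, but its make-up differed: Ttr was found in 112 of 148 cells labelled E16 and in 50 of 54 labelled E18, and Kl had 18 and 140 UMIs. Markers of the cortical hem, the neighbouring edge of the cortex, summed to 2160 and 835 CPM in the class, and their part in the Crabp2 level was not tested. The Crabp2 levels were the highest of any group of at least 20 cells in either library, and their intervals overlapped. A cell of 262857 UMIs, far above the median of 15790 for that class, held 440 of the 1906 UMIs labelled E18, and the level without it was 1053 CPM. With each library clustered on its own the class changed to 72 cells labelled E16 and 168 labelled E18, with 1624 and 529.9 CPM, so that the likeness of the labels rests on how the class was drawn. In the library labelled E16 there followed GABAergic lineage-like cells at 550 CPM (492 to 613), Cajal-Retzius-like cells at 477 CPM (440.4 to 516), the cluster led by Calb1, Calb2 and Lhx9 at 271 CPM (257 to 285), meningeal cells at 208 CPM (183 to 234), the cluster led by Fgf17 and Fgf8 at 199 CPM (187 to 212), intermediate progenitor-like cells at 170.1 CPM (159 to 182) and radial glia-like cells at 109 CPM (106 to 112). Among neighbours in that order, the GABAergic lineage-like and Cajal-Retzius-like cells overlapped in their intervals, as did the meningeal cells and the cluster led by Fgf17 and Fgf8, and the other neighbours did not. Erythroid-like cells, which are not known to need the protein, held 2.22 CPM (1.01 to 4.21), with a UMI in 7.32% of 123 cells and in 0 of 123 after thinning to 2000 UMIs, which allows a share of up to 2.44%.

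Within radial glia-like cells, the stem cells of the cortex, Crabp2 was 7.41 CPM (5.32 to 10.1) under the label E14, 109 CPM (106 to 112) under the label E16 and 46.1 CPM (43.5 to 48.9) under the label E18. The library labelled E16 was highest, E14 lowest, and no interval overlapped another. A UMI was found in 9.60%, 72.7% and 42.3% of these cells and, at 2000 UMIs per cell, in 1.08%, 18.8% and 8.79%, the median depths being 13113, 13576 and 12788 UMIs. The log2 ratio of E16 over E14 was 3.71, where 2.42% of 9887 genes were at least 2-fold higher, 7.24% at least 2-fold lower, and the median gene stood at -0.12. E18 over E16 gave -1.22, where 0.661% of 9681 genes were at least 2-fold lower, and E18 over E14 gave 2.49, where 1.03% of 9883 genes were at least 2-fold higher. Crabp2 was the only 1 of the 7 genes to reach a mean of 5 CPM in radial glia-like cells, so that these counts are 1 of 1.

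Different clusters made up most of the radial glia-like cells in the libraries, those led by H4f3, by Ung and Hells and by Ube2c in the library labelled E16 and those led by Mfge8 and Aldoc, by H1f5 and by Tuba1c in the others. The order of the labels held within clusters too. In the cluster led by Mfge8 and Aldoc, Crabp2 was 8.85 CPM in 194 cells labelled E14, 161 CPM in 26 labelled E16 and 54.8 CPM in 812 labelled E18. In the intermediate progenitor-like cluster led by Efl1 and Neurog2 it was 15.7, 194 and 88.2 CPM. The 4 clusters of progenitors with at least 20 cells of every library all had this order, with no overlap of intervals within a cluster.

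**Figure D3:**
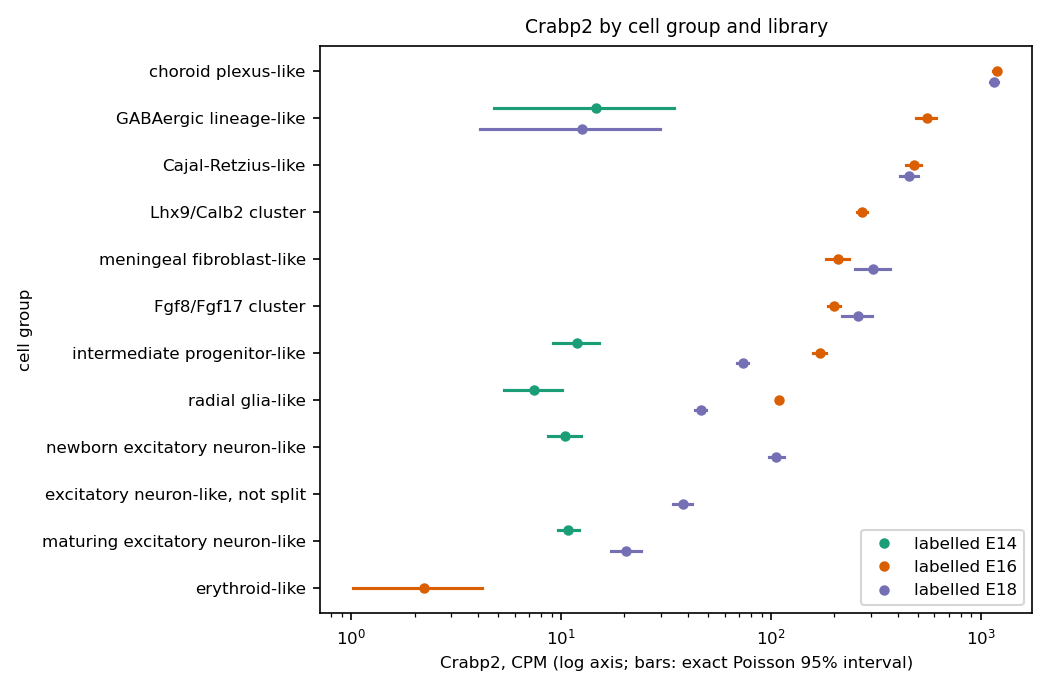
The level of Crabp2 in CPM, on a log axis, is shown for each cell group with at least 20 cells of a library, coloured by library label, and bars give the exact Poisson 95% interval. In progenitor-like cells the library labelled E16 lies to the right of E18 and E18 to the right of E14, while choroid plexus-like and Cajal-Retzius-like cells labelled E16 and E18 lie together.

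Along the excitatory lineage of the library labelled E14 Crabp2 was low throughout. Intermediate progenitor-like cells, which divide once more to give neurons, had 11.9, 170.1 and 73.1 CPM in label order, the highest again labelled E16. Newborn excitatory neuron-like cells had 10.4 CPM labelled E14 and 106 CPM labelled E18 (97.3 to 115), a log2 ratio of 3.23, where 2 of 2 genes passing the floor, Crabp2 and Cyp26b1, were at least 2-fold higher, where 2.98% of 9414 genes were. Cyp26b1 passed the floor of 5 CPM only through the library labelled E18, and it was under 2-fold without 1 cell of that library, as given below. These cells came from clusters led by Selenom and by Cxcl12 under the label E14 and from the cluster led by Neurod1 under the label E18. Maturing excitatory neuron-like cells had 10.8 (9.63 to 12.1) and 20.4 CPM (17.2 to 24.1), under 2-fold. In the library labelled E18, Crabp2 thus ran from 106 CPM in newborn to 20.4 CPM in maturing neuron-like cells, and in the library labelled E14 the 2 groups, at 10.4 and 10.8 CPM, overlapped.

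Ttr, the transthyretin that choroid plexus makes in large amount, was also counted in radial glia-like cells, at 1.27 CPM under the label E14, 11.1 CPM under E16 and 37.6 CPM under E18. In the choroid plexus-like cells labelled E16 and E18 there were 26.2 and 96.4 times as many Ttr as Crabp2 UMIs. The part of choroid plexus RNA in the Ttr and Crabp2 levels of other cells was not tested.

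Cajal-Retzius-like and GABAergic lineage-like cells differed in how far the labels set them apart. Crabp2 in Cajal-Retzius-like cells was 477 CPM labelled E16 and 455 CPM labelled E18 (413 to 500), which overlapped, and 214 CPM (166 to 271) in the 16 cells labelled E14. Of the 3 genes of these cells that passed the floor, Stra6 alone was at least 2-fold lower under the label E18, against 3.94% of 10054 genes. GABAergic lineage-like cells had 550 CPM labelled E16 but 14.7 CPM (4.77 to 34.3) under the label E14 and 12.6 CPM (4.09 to 29.4) under the label E18, and both Crabp2 and Stra6 were at least 2-fold higher in E16 over E14, against 12.1% of 9420 genes, and at least 2-fold lower in E18 over E16, against 11.7% of 9489 genes. Stra6 passed the floor of 5 CPM there only through the library labelled E16, and so had to differ. With doublets removed at 2 times the rate the class was redrawn, with 422 and 89 cells labelled E16 and E18 in place of 74 and 70. It then had 96.9 CPM of Crabp2 in the cells labelled E18, which is not a level of the same cells. Which cells joined the class was not tested. The GABAergic cells labelled E16 also differed in other genes: Isl1, Six3 and Zic4 stood at 173, 110.4 and 233 CPM there and at 0 to 8.81 CPM in the other libraries, while Maf, of cortical interneurons, stood at 35.7 CPM there and at 729 and 2034 CPM in the libraries labelled E14 and E18. Whether this mix of cells accounts for the Crabp2 level was not tested.

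Breakdown is represented by Cyp26b1, the hydroxylase that inactivates retinoic acid. It was found mainly in excitatory neuron-like cells. In maturing excitatory neuron-like cells it stood at 2.75 CPM under the label E14 (78 UMIs, 2.18 to 3.44) and 60.9 CPM under the label E18 (420 UMIs, 55.2 to 67.0), and no cell labelled E16 was in that class. The level labelled E18 was the higher without overlap, with a log2 ratio of 4.04, where 2.66% of 9453 genes were at least 2-fold higher. It passed the floor of 5 CPM only through the library labelled E18. Few cells carried it: 45 of 1875 and 80 of 510 had a UMI, or 0.375% and 5.00% at 2000 UMIs, and the richest cell held 28. Over other filters and clusterings the level labelled E18 lay between 35.8 and 100.3 CPM.

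The clusters behind that class differed between the libraries. Nearly all of the maturing cells labelled E18, 497 of 510, were in the cluster led by Crym, Dact1 and Rprml, where Cyp26b1 was 62.0 CPM (56.2 to 68.3). The 82 cells labelled E14 in the same cluster had 27.5 CPM (19.7 to 37.2), while the 2 clusters that held most maturing cells labelled E14 had 1.48 and 1.26 CPM. The difference between labels within the shared cluster was thus smaller than in the class as a whole, and its intervals still did not overlap. The share of its cells with a UMI was 19.5% labelled E14 and 15.9% labelled E18. The excitatory neuron-like cluster led by Pcp4, Sema6d and Hpca, which was not split into newborn or maturing and was almost all labelled E18, had 16.6 CPM (14.1 to 19.3) with a UMI in 46 of 1051 cells. Over all libraries it ranked above the maturing class, which had 14.1 CPM with the cells labelled E14 summed in. In the library labelled E18 alone the maturing class ranked first, as it did for 8.86% of 13514 genes. In the library labelled E14 alone newborn excitatory neuron-like cells ranked first, as they did for 12.3% of 12742 genes, at 3.66 CPM (2.66 to 4.91) beside 2.75 CPM in the maturing class, and the intervals overlapped.

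**Figure D4:**
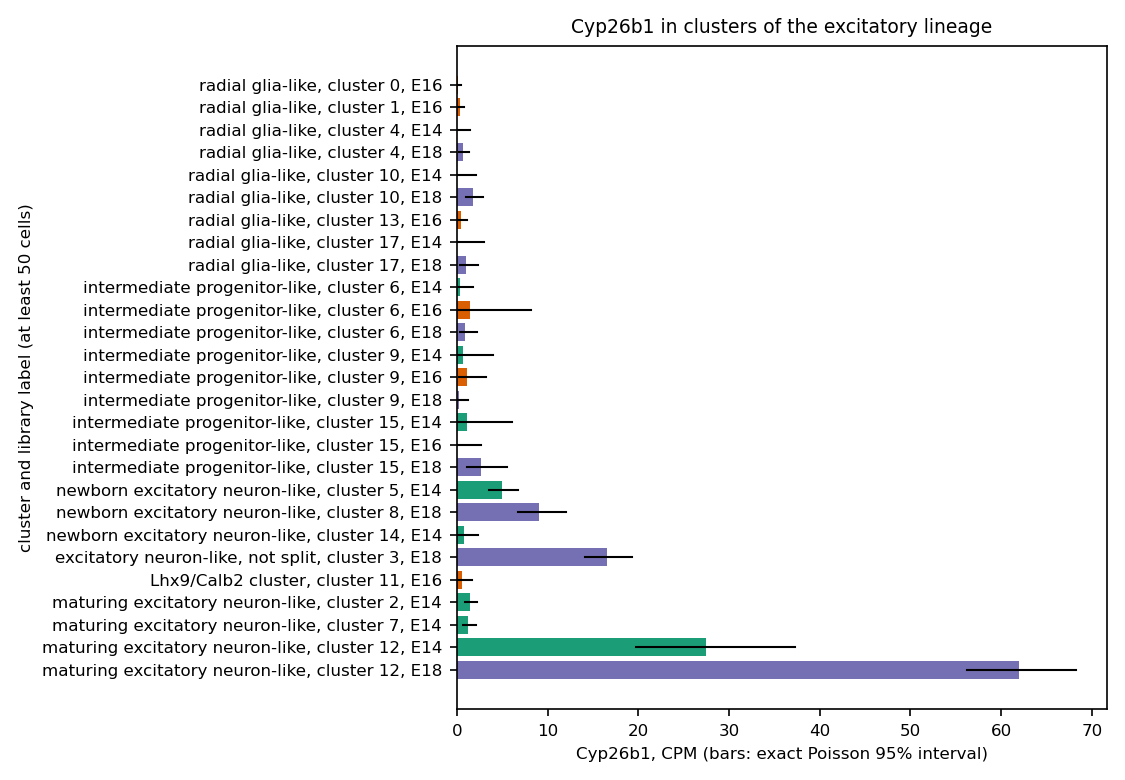
Bars give the CPM of Cyp26b1 in each cluster of the excitatory lineage and library with at least 50 cells, coloured by library label, and black lines give the exact Poisson 95% interval. The cluster numbered 12, led by Crym, is the highest in both libraries that hold it, with 27.5 CPM under the label E14 and 62.0 CPM under E18, and progenitor clusters lie near 0.

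Newborn neuron-like cells had 8.85 CPM of Cyp26b1 (6.55 to 11.7) under the label E18. There 14 of the 49 UMIs lay in 1 cell, and the level without it was 6.34 CPM, under 2-fold above the 3.66 CPM labelled E14. Progenitors and support cells held little of it. Radial glia-like cells had 0, 0.26 and 1.19 CPM in label order, and the whole library labelled E16 had 32 UMIs in 4977 cells. Meningeal cells had 1 UMI labelled E16 and 0 labelled E18, choroid plexus-like cells 1 in each library, and erythroid-like cells none. Cyp26b1 and the synthesis gene Aldh1a2 were therefore found in different groups of cells. Cyp26a1 and Cyp26c1, the other hydroxylases of the family, had 9 and 5 UMIs in all kept cells, 6 of the Cyp26a1 UMIs in maturing neuron-like cells labelled E14 and all of the Cyp26c1 UMIs in choroid plexus-like cells.

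Rarb is a nuclear receptor for retinoic acid and also a textbook target of it, through a response element near its start. A script searched the promoter windows of RefSeq (build GRCr8, 250 bases before to 50 after each start, both strands) for direct repeats of hexamers, each of which could be AGGTCA, its variant AGTTCA, the form GGGTCA or the form GGTTCA, with 1, 2 or 5 bases between them, the arrangement that RAR and RXR dimers are known to bind. All 7 genes had a window, as had 35 of the 46 genes when the 39 other listed retinoid genes are added. With 5 bases between the hexamers, 1 of the 7 genes, Rarb, held a match, and of the other listed genes Cyp26a1 did, against 0.382% of 33469 windows. They are shown because Rarb is the receptor measured below, with the hexamers in capitals, 5′ to 3′.
Rarb: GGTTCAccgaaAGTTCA
Cyp26a1: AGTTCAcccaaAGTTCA
The Rarb match lies at chr15:11336416-11336432 on the plus strand of the genome, its first base at position 25 with the RefSeq start counted as position 1. The Cyp26a1 match lies at chr1:244883730-244883746 on the minus strand, 92 bases before the start. With 1 or 2 bases between the hexamers no listed gene held a match, against 0.233% and 0.17% of windows, which says only that these letters are not in these windows. A match is a description of letters, and binding was not measured here. The windows are of another build than the counts, so no count was placed on them.

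Rarb stood at 69.5 CPM in meningeal cells labelled E16 (88 UMIs, 55.8 to 85.7) and 57.2 CPM in those labelled E18 (20 UMIs, 35.0 to 88.4). The intervals overlapped and the log2 ratio was -0.28, so that no difference between the labels was detectable at this depth. A UMI was found in 45 of 93 and 12 of 22 cells, or 11.8% and 19.0% at 2000 UMIs. In radial glia-like cells it was 0.72, 0.77 and 0.72 CPM in label order, levels that overlapped, while Crabp2 in the same cells spanned 7.41 to 109 CPM. Choroid plexus-like cells had 4 UMIs labelled E16 (1.43 CPM) and 8 labelled E18 (4.83 CPM, 2.09 to 9.52), each of the 8 in a different cell. Cyp26a1, the other gene with a match, had too few UMIs to set beside it.

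Across cell groups the genes followed different companions. For each gene with at least 200 UMIs, the genes of most similar level were found by Pearson's r of log2(CPM + 1). It was taken over 24 units of group and library with at least 30 cells, which share libraries and depth, so that r is given as a description. The meningeal cells labelled E16 were the only meningeal unit. Aldh1a2, Rarb and Crabp1 were by far highest in that unit, so their r with other meningeal genes and with each other rests largely on it. Aldh1a2 ran closest to Tbx18 (r = 0.99) and Cyp1b1 (0.98), then Fmo1, Osr1 and Ranbp3l, and Rarb to Bmp5 (0.91), Col6a2, Foxd1, Lum and Cped1. Tbx18, Foxd1, Lum and, for Stra6 below, Islr are among the markers that named the meningeal class. Crabp1 ran closest to Rerg (0.89), Emilin1, Akap12, Anxa1 and Rcsd1, and Stra6 to Rasa4 (0.86), Myadm, Islr and Abca1. Crabp2 ran with Zic4 (0.88) and Zic1 (0.84), related zinc finger transcription factors, and with Sulf2 and Zfp521. Cyp26b1 ran with Synj1 (0.80), which recycles synaptic vesicles, and with Cnnm1, LOC103692331, Galnt17 and Klhdc8a. Among the 7 genes themselves r was 0.82 for Aldh1a2 and Rarb, 0.75 for Stra6 and Crabp2, 0.72 for Aldh1a2 and Crabp1, and -0.20 for Cyp26b1 and Rarb.

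The 39 other listed genes of the pathway shared the meningeal and choroid plexus groups in part. Of the 30 with at least 50 UMIs, 5 were highest in meningeal cells (among them Rdh10, Rarg, Rxra and Rarres2), 7 in choroid plexus-like cells (Rbp2, Rbp4, Ttr, Rdh11, Rdh14, Aldh1a1 and Rxrg) and 18 in other groups, beside the 10% and 14.8% of all genes given above. Rdh10, which oxidises retinol to retinaldehyde before Aldh1a2 acts, had 120.1 CPM (102 to 141) under the label E16 and 226 CPM (179 to 282) under E18 in meningeal cells. The cell of 36919 UMIs named above held 34 of its 79 UMIs labelled E18, and without it the level was 144 CPM (105 to 193), which overlaps the interval of the cells labelled E16. A UMI of Rdh10 was found in 51.6% and 50% of cells, so that no difference between the labels is read from it. In meningeal cells 23 listed genes passed the floor, of which 5 were at least 2-fold higher under the label E18 (Ttr, Dhrs3, Tgm2, Rarres2 and Meis2) and 0 lower, beside 12.2% higher and 7.07% lower of all 10357 genes, with a median log2 ratio of 0.21 beside 0.10 over all genes. Without the cell of most UMIs of each gene in either library these counts were 4 and 2, a step added after the values were seen: Meis2, with 7 of its 8 UMIs labelled E18 in 1 cell, was no longer higher, and Rxra and Rarres1 were at least 2-fold lower. Tgm2, a transglutaminase known to respond to retinoic acid, went from 11.9 (6.63 to 19.5) to 126 CPM (91.5 to 169), and without the cell of 36919 UMIs, which held 17 of its 44 UMIs, to 86.4 CPM (56.9 to 126). Dhrs3, which turns retinaldehyde back to retinol, went from 11.1 (6.05 to 18.6) to 48.6 CPM (28.3 to 77.9). The Ttr call was not particular to meningeal cells. In E18 over E16 Ttr was also at least 2-fold higher in radial glia-like, intermediate progenitor-like and choroid plexus-like cells. It was not in Cajal-Retzius-like or GABAergic lineage-like cells. In erythroid-like cells Ttr went from 3.45 CPM in 123 cells to 38.1 CPM in 9 cells.

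In radial glia-like cells 18 listed genes passed the floor in E16 over E14. Of these, 3 were at least 2-fold higher (Ttr and Rara among them) and 2 lower (Ncoa1 and Meis1). Of all 9887 genes, 2.42% were higher and 7.24% lower. The median log2 ratio was 0.04, beside -0.12 over all genes. Ttr passed the floor only through its E16 level and Meis1 only through its E14 level, so both had to differ. Ttr was also called higher in E16 over E14 in intermediate progenitor-like and GABAergic lineage-like cells. Its call was thus not particular to radial glia-like cells. Rara, the widely expressed retinoic acid receptor, had the same order of labels as Crabp2 in radial glia-like cells. It stood at 7.96 (5.78 to 10.7), 17.7 (16.5 to 19.0) and 12.4 CPM (11.1 to 13.9) in label order. Dhrs3 was lowest in the library labelled E16, at 7.23, 0.18 and 1.11 CPM in label order in radial glia-like cells. In neurons it depended on the cluster: newborn neuron-like cells, which come from different clusters in the libraries, had 30.9 CPM under the label E14 and 3.98 CPM under E18, maturing ones 17.3 and 10.1 CPM, and the cluster not split into newborn or maturing, almost all labelled E18, had 30.1 CPM.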

How the data were processed

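The deposited files hold whole-number counts of UMIs per gene and barcode, made by the authors with Cell Ranger 6.0.1 on the build mRatBN7.2, per the submitters' processing notes. The annotation is not given in the sources used here. Libraries were made with the 10x 3′ kit version 3.1 and read on a NovaSeq 6000, per the labels. The tables hold 7100, 6707 and 6937 barcodes in the libraries labelled E14, E16 and E18, with 62740631, 80974234 and 73727823 UMIs, and no value column of theirs was left unused (0 columns).

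From these counts, a barcode was kept as a cell if it had 1000 genes or more and its 13 mitochondrial genes gave no more than 10% of its UMIs. The cells with the highest Scrublet scores were removed as doublets at 0.8% per 1000 cells (158, 216 and 259 cells), since Scrublet's own threshold marked 2.43%, 0.0578% and 2.55%. Cells were clustered with scanpy 1.11.5 on 2000 variable genes, from which the 7 genes and 39 other listed retinoid genes were left out, 30 principal components, 15 neighbours and leidenalg 0.10.2 at resolution 1. The 25 clusters, 11 of which held over 90% of cells from 1 library, were named from 124 markers of 14 classes where at least 3 markers were raised. A CPM is the sum of a gene's UMIs over the cells of a class in a library, scaled to the sum over all genes. The work used Python 3.11.15 with pandas 2.3.3, scipy 1.17.1, numpy 2.4.6, anndata 0.12.19, scikit-learn 1.9.0 and matplotlib 3.10.9.

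Intervals are exact Poisson (CPM) or Clopper-Pearson (shares) at 95% and cover counting error only, and a count of 0 was read as allowing 3 counts. With 1 library per label there was no test. A gene was called at least 2-fold higher or lower from CPM with 1 added, if its mean was at least 5 CPM, and this step was checked on simulated data. Classes of at least 30 cells and genes of at least 50 UMIs entered the ranking, and the most alike genes were the 5 of highest r among 13293 genes with at least 200 UMIs. The text names the 7 genes, the listed retinoid genes, those 5, class markers and the genes leading clusters. Isl1, Six3, Zic4, Maf and Sox10 were named after their values were seen, and some genes under these rules are not reported here. The 7 genes, the lists and the rules were chosen with earlier results of these data known. Alternatives were other cell filters, resolutions, doublet rates, clusterings, thresholds, weights and depths for thinning, and, added after seeing the data, leaving out each library or the cell of most UMIs.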

Additional observations from a re-analysis of the deposited data

Results flagged for a closer look

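UMIs of the 7 genes were also counted in barcodes that the cell filters removed, outside every comparison above. There is no control library to set them against, and each count below is above the 3 counts that a count of 0 allows. In the 2656 removed barcodes labelled E14 there were 4 UMIs of Stra6, 11 of Crabp1, 50 of Crabp2, 26 of Cyp26b1 and 4 of Rarb. In the 1514 labelled E16 there were 16 of Stra6, 11 of Aldh1a2, 66 of Crabp1, 318 of Crabp2 and 22 of Rarb. In the 1247 labelled E18 there were 15 of Stra6, 24 of Aldh1a2, 5 of Crabp1, 140 of Crabp2, 115 of Cyp26b1 and 9 of Rarb. Crabp2 had the highest count of the 7 genes in the removed barcodes of each library, as it did in the kept cells.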

How the results depend on the processing

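No paired analysis was possible because each label has 1 library. The count of 4 genes highest in meningeal cells was 4 under every alternative run except without the library labelled E16, where it was 0 because meningeal cells fell under 30. Crabp2 in radial glia-like cells was called in the same direction in all 3 comparisons under the alternatives of cell filter, doublet rate, clustering, added CPM, floor and fold. Its log2 ratio moved to 3.20 (E16 over E14) and 2.04 (E18 over E14) with 5 CPM added, and E18 over E16 was -1.08 when doublets were taken out at 2 times the rate and -1.12 when libraries were clustered apart. The cause was not tested. Of 444 values of single genes in a class and library, 309 stayed within the counting interval of the reported value and 135 did not, and 54 of 366 CPM values moved by over 1.5 times, mostly in the small meningeal and choroid plexus classes. The higher doublet rate left 23 and 4 choroid plexus-like cells in the libraries labelled E16 and E18. Depth limits Aldh1a3, Cyp26a1, Cyp26c1 and Rarb outside the meninges most, where groups hold few UMIs.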
